A study of Mus musculus with 4 samples.

Results

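Small nucleolar RNA host genes are transcribed mainly for what lies in their introns. Small nucleolar RNAs of the C/D class guide 2'-O-methylation and those of the H/ACA class guide pseudouridylation of ribosomal RNA, and a few act in cleavage of the ribosomal RNA precursor. In mammals nearly all of them are cut out of the introns of host transcripts. The spliced host RNA left behind often has only short reading frames, and several such RNAs are known to be removed by nonsense-mediated decay, the pathway that degrades transcripts whose translation stops early. Host genes typically begin in a run of pyrimidines, a feature shared with the messenger RNAs of ribosomal proteins and translation factors.

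The host genes described here are Gas5, Snhg1, Snhg3, Snhg5, Snhg6, Snhg8 and Snhg12. They were taken by gene symbol, 7 of the 55353 symbols in the count table. The rule itself uses no measured value, but the genes were picked with earlier results of these data known. All 7 had counts in every library, passed the filter on low counts and were among the 17482 genes tested. RNA was sequenced from 4 libraries of E14 cells, a mouse embryonic stem cell line (strain given as 12910la) grown on gelatin in serum medium with LIF. In 2 libraries the genotype is given as Ssrp1 KO, made with Cas9 and a guide RNA, and in 2 it is given as wild type; these are called the libraries labelled knockout and the controls. The treatment text also describes a pSuper puro vector carrying a Usp7 hairpin, an empty vector transfected into wild-type cells and puromycin selection, without saying whether these controls received it. The labels give neither the number of knockout clones nor the origin of replicates (separate cultures or one). The p-values thus measure no more than the spread among these 4 samples, and that spread may be technical.

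Total counts were 22855451 and 23030224 in the libraries labelled knockout and 22611434 and 25344190 in the controls. Ssrp1, which encodes a subunit of the histone chaperone FACT, was at 305 and 327 normalised CPM (read counts scaled to a common library total, with TMM factors) in the libraries labelled knockout and 282 and 306 in the controls. The difference on the log2 scale was 0.11 ± 0.06 (SE, 2 libraries each, edgeR adjusted p 0.226). A transcript can remain after a small Cas9 lesion, so this level does not check the labels. Under scaling by library size alone the adjusted p was 0.0308 (log2 fold change 0.19), and without knockout replicate 1 it was 0.0108 (0.16). Of all genes tested, 16.5% were called higher and 17.2% lower. Of 8 stem cell markers, 1 rose (Nanog, log2 fold change 0.17) and 6 fell. The summed level of these 8 was 3814 and 3731 normalised CPM in the libraries labelled knockout, against 4685 and 4840 in the controls. Of 6 primitive endoderm markers 5 were tested, of which 4 rose; they summed to 21.2 and 23.1 against 8.62 and 6.94 normalised CPM. Fibroblast markers were low in both groups (between 15.5 and 19.1 normalised CPM for 2 tested of 7), with Postn, Dcn and Lum at 0 counts throughout. Gm26917 and Gm42418, which resemble ribosomal RNA, took 6.30% and 4.64% of counts in the libraries labelled knockout against 9.72% and 10.25% in the controls. The part of these shifts in the results was not tested. In such bulk samples a different share of cells and a different amount of RNA per cell cannot be told apart.

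The transcription starts are shown because the pyrimidine run at the start is what the class is known for, and because members that rose and members that did not can be set side by side. RefSeq (GRCm38.p6) gave a start for 6 of the 7 genes. Each line holds 50 bases before and 50 bases from the start, 5' to 3'. Capitals mark the longest run of C and T with a base within 5 bases of the start; for Gas5, which has 2 listed starts, the one shared with 13 GENCODE transcripts is given.
Snhg3 start, chr4:132353637-132353736 (minus strand): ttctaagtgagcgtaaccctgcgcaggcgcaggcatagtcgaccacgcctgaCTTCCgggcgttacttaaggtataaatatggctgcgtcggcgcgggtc
Snhg12 start, chr4:132308628-132308727 (plus strand): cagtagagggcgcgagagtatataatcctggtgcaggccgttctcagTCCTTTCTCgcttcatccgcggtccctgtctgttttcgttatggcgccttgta
Snhg5 start, chr9:88522848-88522947 (minus strand): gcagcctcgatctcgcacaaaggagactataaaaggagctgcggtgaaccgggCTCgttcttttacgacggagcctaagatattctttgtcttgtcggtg
Gas5 start, chr1:161035116-161035215 (plus strand): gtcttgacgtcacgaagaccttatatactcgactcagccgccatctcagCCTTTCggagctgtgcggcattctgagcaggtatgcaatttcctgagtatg
Snhg1 start, chr19:8723437-8723536 (plus strand): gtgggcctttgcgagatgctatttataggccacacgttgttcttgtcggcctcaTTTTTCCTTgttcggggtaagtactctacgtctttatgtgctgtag
Snhg8 start, chr3:123508287-123508386 (minus strand): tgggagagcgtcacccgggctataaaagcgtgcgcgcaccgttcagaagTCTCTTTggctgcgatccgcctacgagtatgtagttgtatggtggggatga

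Long runs stood both among the genes called higher and among those not called. Snhg12 had a run of 9 bases, Snhg3 one of 5 and Snhg5 one of 3, and these are the genes called higher below. The rule leaves out runs farther from the listed start, such as the longer ttctttt in the Snhg5 line, so the value for Snhg5 depends on it. Among the genes not called, Snhg1 had 9 bases, Snhg8 had 7 and Gas5 had 6. A run of at least 9 bases in that position was found in 6.9% of 32851 RefSeq starts and a run of at least 3 in 67.8%. The exact first base of a transcript may differ from the listed one. GENCODE transcripts starting within 20 bases of the listed base numbered 13 for Gas5, 5 for Snhg12 and 3 for Snhg1. They numbered 2 each for Snhg5 and Snhg8 and 1 for Snhg3. The letters TATA, which read alike on both strands, occurred between bases -40 and -16 in 5 of the 6 starts and in 5.9% of all starts. Snhg3 was the one without them in that window. Its line does hold them downstream of the listed start (tataaata), so this absence depends on the start used. A match of letters is a description and not evidence of a bound factor.

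The small nucleolar RNAs inside the hosts are the second readout, and most of them had no counts. GENCODE M21 placed 27 small nucleolar RNA symbols inside the 7 genes on the same strand. Of the 26 also found in the count table, 23 had 0 counts in all 4 libraries. All 23 lie wholly within an annotated exon of their own host, often an exon of a transcript with a retained intron, whereas the 3 with counts do not. The same division held over all Snord, Snora and Scarna symbols with 1 annotated position: 0 of 52 that lie wholly inside an exon of another gene had a count, against 70 of 91 (76.9%) of the others. Of the symbols under 140 bases that do not lie wholly inside such an exon, 59 of 79 had counts. The cause of the zeros was not tested. How reads in overlapping features were counted is not given in the sources used here. For the small RNAs of Gas5, Snhg1, Snhg5, Snhg8 and Snhg12 the zeros are therefore values of this table and give no level of the RNAs.

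**Figure D1:**
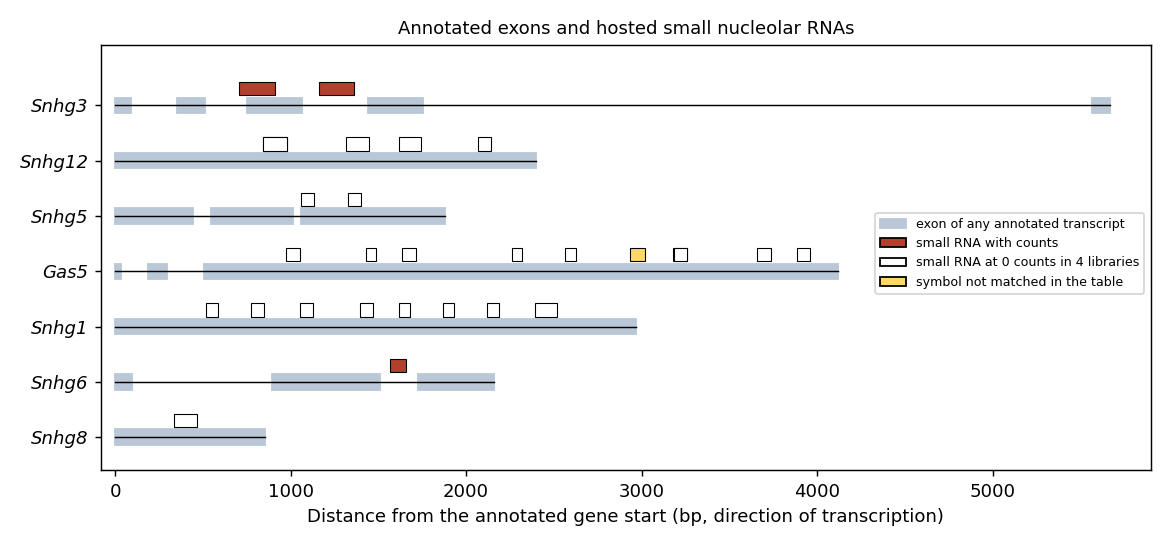
Annotated exons (grey, all transcripts joined) of the 7 host genes and the small nucleolar RNAs inside them (boxes above), by distance in base pairs from the gene start. The 3 small RNAs with counts (red) belong to Snhg3 and Snhg6 and lie partly or wholly outside the exons; the boxes at 0 counts (white) lie over exons, and the yellow box is a symbol not matched in the count table.

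The 3 counted small RNAs are shown because they are the only ones with counts to set beside their hosts. Reads of a processed small RNA and of unspliced host RNA over the same bases were not told apart. Snora73a and Snora73b, the U17 RNAs of Snhg3, are H/ACA RNAs that act in cleavage of the ribosomal RNA precursor. Snord87, in Snhg6, is a C/D RNA. Sequences are those of GENCODE M21 on GRCm38, written as DNA, with the ACA box of the H/ACA RNAs and the C box (TGATGA) and D box (CTGA) of Snord87 in capitals.
Snora73b, chr4:132352322-132352526 (minus strand): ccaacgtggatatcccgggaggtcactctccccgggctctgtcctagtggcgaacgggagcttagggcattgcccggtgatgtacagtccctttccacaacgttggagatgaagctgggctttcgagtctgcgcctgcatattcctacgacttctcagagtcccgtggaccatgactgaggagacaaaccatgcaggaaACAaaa
Snora73a, chr4:132352775-132352979 (minus strand): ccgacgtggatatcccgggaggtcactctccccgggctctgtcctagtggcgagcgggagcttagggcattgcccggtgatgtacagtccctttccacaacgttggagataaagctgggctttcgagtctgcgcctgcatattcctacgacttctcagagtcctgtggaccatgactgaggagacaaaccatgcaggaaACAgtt
Snord87, chr1:9942463-9942549 (minus strand): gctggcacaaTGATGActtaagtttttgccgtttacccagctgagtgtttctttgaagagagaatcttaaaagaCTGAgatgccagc

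Snhg3 was the host gene with the largest rise, and Snora73b, a small RNA in its intron, was higher by a like amount. The span of Rcc1, described below, also holds Snora73b on the same strand, so Snora73b cannot be credited to Snhg3 alone. Snhg3 lies on the minus strand of chromosome 4 (132348014 to 132353686, mm10) and its annotated exons cover 986 bases. Snhg3 was at 47.3 and 41.0 normalised CPM in the libraries labelled knockout and at 31.1 and 33.8 in the controls. Both libraries labelled knockout stood above both controls. The mean was 44.1 ± 4.48 against 32.4 ± 1.95 (SD, n = 2 each), a 1.36-fold difference with a log2 fold change of 0.44 ± 0.10 (SE) and an adjusted p of 0.00114. Snora73b was at 16.2 and 16.3 normalised CPM in the libraries labelled knockout and 12.7 and 11.6 in the controls, without overlap. Its log2 fold change was 0.42 ± 0.13 (adjusted p 0.0146), and without control replicate 2 it was 0.35 with an adjusted p of 0.154. The ratio of Snora73b counts to Snhg3 counts was 0.343 and 0.397 in the libraries labelled knockout and 0.41 and 0.342 in the controls, so the ratios of the groups overlapped.

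Snora73a, the other U17 copy, had 43 and 37 counts in the libraries labelled knockout and 32 and 48 in the controls. At this depth the groups overlapped (log2 fold change -0.01, 95% interval -0.74 to 0.71, adjusted p 0.982). The copies are identical at 198 of 205 bases (96.6%), so the division of reads between them is uncertain. Together they stood at 18.1 and 17.8 normalised CPM against 14.2 and 13.5. Part of Snora73a (159 of 205 bases) overlaps an Snhg3 exon. The effect of this overlap on the Snora73a count and on the sum was not tested.

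Rcc1, which encodes the nucleotide exchange factor for the GTPase Ran, runs on the same strand as Snhg3 from nearly the same start, and the annotated exons of both share 135 bases. The Rcc1 span also holds Snora73a and Snora73b. Rcc1 was at 116 and 114 normalised CPM in the libraries labelled knockout and 92.9 and 95.7 in the controls. Its log2 fold change was 0.28 ± 0.07 (adjusted p 0.00252), and the call was lost without control replicate 1 (0.25, adjusted p 0.0866). Reads from the shared bases cannot be assigned to one gene with certainty. The noncoding Gm17300 on the opposite strand, which overlaps 705 exonic bases of Snhg3, had 0 counts in every library.

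Snhg12 rose nearly as much as Snhg3 and lies on the same stretch of chromosome 4. It hosts the H/ACA RNAs Snora16a, Snora44 and Snora61 and the C/D RNA Snord99, on the plus strand (132308623 to 132311024). Snhg12 was at 26.4 and 23.1 normalised CPM in the libraries labelled knockout and at 17.5 and 19.8 in the controls, and the groups did not overlap. The log2 fold change was 0.41 ± 0.12 (adjusted p 0.00974), a 1.32-fold difference. The call was lost without control replicate 1, where the log2 fold change was 0.32 with an adjusted p of 0.139.

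The levels of Snhg3 and Snhg12 moved together over the 4 libraries. The distance between their centred log2 profiles was 0.0517, the smallest of the 21 pairs of host genes, whose largest was 0.613 for Snhg1 and Snhg3. Genes outside the set came nearer to each, Sbk1 to Snhg3 (0.0366) and Tfrc to Snhg12 (0.0301). Whether the shared position plays a part was not tested. Per kilobase of exon, the ratio of Snhg12 to Snhg3 was 0.229 and 0.232 in the libraries labelled knockout and 0.232 and 0.24 in the controls. Their spans are 36989 bases apart, with Trnau1ap and Rcc1 between or over them. Trnau1ap, which encodes a protein that binds selenocysteine transfer RNA, did not pass the test (log2 fold change 0.14 ± 0.11, adjusted p 0.371). The stretch was looked at after the values of Snhg3 and Snhg12 were seen, and the other genes called higher on it are Rcc1 and Snora73b, which share exonic bases or an intron with Snhg3, so no count over it is read.

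Snhg5 was the third host gene to rise. It hosts the C/D RNAs Snord50a and Snord50b on the minus strand of chromosome 9 (88521050 to 88522929). Snhg5 was at 52.9 and 61.8 normalised CPM in the libraries labelled knockout and at 46.3 and 44.4 in the controls. The groups did not overlap, and the libraries labelled knockout differed more from each other than the controls did (57.4 ± 6.29 against 45.4 ± 1.35, SD, n = 2 each). The log2 fold change was 0.34 ± 0.09 (adjusted p 0.00486), 1.26-fold. Without knockout replicate 2 it was 0.22 (adjusted p 0.0499), and without control replicate 2 the call was lost (0.31, adjusted p 0.0553).

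**Figure D2:**
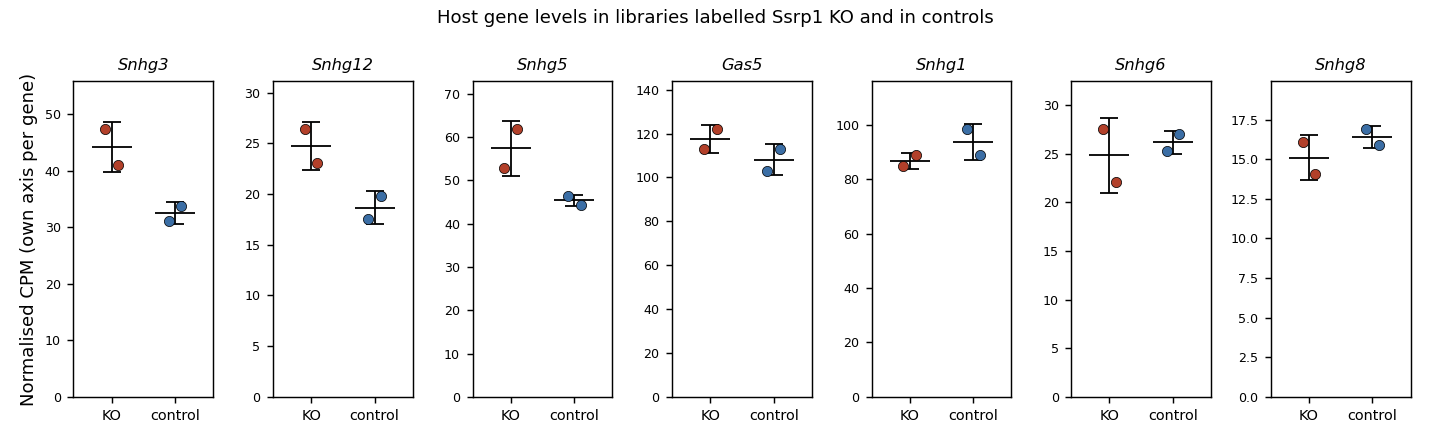
Normalised CPM of the 7 host genes in the libraries labelled knockout (KO, red) and the controls (blue); points are libraries, bars the mean and SD (n = 2 each), and each panel has its own axis from 0. Snhg3, Snhg12 and Snhg5 lie higher in both libraries labelled knockout, while the points of Snhg6 and Snhg8 overlap between groups.

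Gas5, the most abundant of the set in normalised CPM, did not pass the test. It takes its name from growth arrest, during which its spliced RNA accumulates, and it hosts C/D RNAs, among them Snord47, Snord78 and Snord80, on chromosome 1 (161034422 to 161038539, plus strand). Gas5 was at 113.3 and 122.3 normalised CPM in the libraries labelled knockout and 103.4 and 112.6 in the controls. The groups were separated by less than 1 CPM at their nearest values. The log2 fold change was 0.12 ± 0.07 (95% interval -0.02 to 0.27, adjusted p 0.184). It passed the threshold under scaling by library size alone (0.21, adjusted p 0.0276) and without knockout replicate 1 (0.18, adjusted p 0.0263).

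Zbtb37, a zinc finger gene on the opposite strand, starts within the annotated span of Gas5 but shares 0 exonic bases with it. Zbtb37 rose to 86.5 and 88.3 normalised CPM in the libraries labelled knockout, against 67.6 and 66.4 in the controls (log2 fold change 0.38 ± 0.07, adjusted p 0.00027). This neighbour passed the test where Gas5 did not; the difference between the genes was not tested.

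Snhg1, the host of a row of C/D RNAs including Snord22, lies on chromosome 19 (8723475 to 8726443, plus strand). Snhg1 was at 84.8 and 88.9 normalised CPM in the libraries labelled knockout and 98.4 and 89.0 in the controls, with a log2 fold change of -0.11 ± 0.07 (95% interval -0.26 to 0.04, adjusted p 0.267). The nearest values of the groups were almost equal. Slc3a2, which encodes the heavy chain of amino acid transporters and starts 106 bases upstream on the opposite strand, was at 152 and 163 against 194 and 171 normalised CPM (log2 fold change -0.21 ± 0.07, adjusted p 0.0283). That call was lost under scaling by library size alone (-0.13, adjusted p 0.197), with DESeq2 (-0.20, adjusted p 0.0634) and without control replicate 1 (-0.12, adjusted p 0.460).

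Snhg6 and Snhg8 each host 1 small nucleolar RNA and overlapped between the groups. Snhg6 (chromosome 1, 9941959 to 9944118, minus strand) was at 27.5 and 22.1 normalised CPM in the libraries labelled knockout and 25.3 and 26.96 in the controls, with a log2 fold change of -0.08 (95% interval -0.32 to 0.16, adjusted p 0.632). Its sign turned under library size scaling (0.00) and without knockout replicate 2 (0.07). Its small RNA Snord87 had 5 and 22 counts in the libraries labelled knockout and 6 and 17 in the controls, too few to show any but a large difference (log2 fold change 0.22, 95% interval -1.158 to 1.598). The log2 fold change of Snord87 was -1.17 without knockout replicate 2 and -0.29 without control replicate 1. Snhg6 also overlaps 127 exonic bases of Mcmdc2 on the opposite strand, which was at 1.63 and 1.51 against 1.36 and 1.72 normalised CPM. Snhg8, the host of the H/ACA RNA Snora24 on chromosome 3 (123507552 to 123508404, minus strand), was at 16.1 and 14.1 in the libraries labelled knockout and 16.9 and 15.9 in the controls, with a log2 fold change of -0.12 (95% interval -0.38 to 0.14, adjusted p 0.502).

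Together, 3 of the 7 host genes were called higher and 0 lower. Of all genes tested, 16.5% were called higher and 17.2% lower (2877 and 3000 of 17482), 33.6% in either direction. DESeq2 called 3 host genes higher and 0 lower, and over all genes 2225 higher and 2198 lower. With library size scaling 4 were higher and 0 lower, and over all genes 3887 were higher and 2215 lower. The median log2 fold change was 0.12 over the host genes and 0.00 over all genes tested. For 5 of the 7 the values of the groups were fully separated, as they were for 66.6% of all genes tested. The summed level of the 7 was 368 and 373 normalised CPM in the libraries labelled knockout and 339 and 342 in the controls. With 7 genes such counts are a description of these genes.

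**Figure D3:**
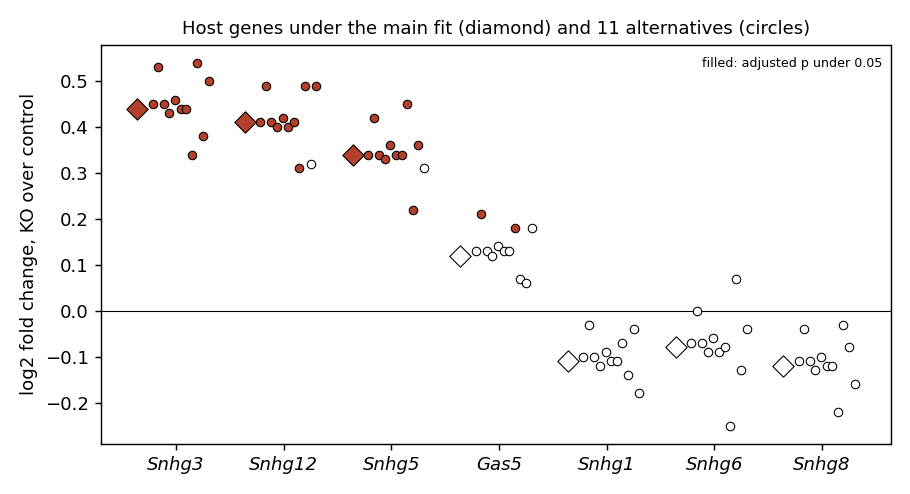
Log2 fold change, libraries labelled knockout over controls, of each host gene under the main settings (diamond) and 11 alternatives (circles); filled marks have an adjusted p under 0.05. Snhg3 stays between 0.34 and 0.54 and filled throughout, Snhg12 and Snhg5 each have 1 open mark, and Gas5 has 2 filled ones.

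Levels between host genes were compared per kilobase of annotated exon, which depends on how much of each gene GENCODE lists as exon. For Snhg1, Snhg8 and Snhg12 the exons joined over all transcripts cover the whole span. They cover 3760 of 4118 bases for Gas5 and 1730 of 1880 for Snhg5. For Snhg6 they cover 1146 of 2160 and for Snhg3 only 986 of 5673. The order of the genes below, with Snhg3 first, depends on these lengths. Snhg3 stood highest in both groups, at 44.8 ± 4.55 normalised CPM per kb in the libraries labelled knockout and 32.9 ± 1.98 in the controls (SD, n = 2 each). Snhg12 stood lowest, at 10.3 ± 0.954 and 7.77 ± 0.653. Snhg6 and Snhg8 held the fifth and the sixth place in both groups, at 21.6 ± 3.33 and 17.7 ± 1.66 in the libraries labelled knockout and 22.8 ± 0.992 and 19.2 ± 0.813 in the controls. Between them and Snhg3 the order changed. In the libraries labelled knockout it was Snhg5 (33.2 ± 3.64), Gas5 (31.3 ± 1.68) and Snhg1 (29.3 ± 0.974), and in the controls it was Snhg1 (31.6 ± 2.24), Gas5 (28.7 ± 1.72) and Snhg5 (26.2 ± 0.779). Neighbours with overlapping values were Snhg5 and Gas5 in the libraries labelled knockout and Snhg3 and Snhg1 in the controls. Gas5 and Snhg1 were almost tied. Their nearest values were 30.1 and 30.0 in the libraries labelled knockout and 29.9 and 30.0 in the controls. The changed order of Gas5 and Snhg1 is therefore not read.

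The other noncoding hosts moved in both directions, over a range of log2 fold changes from -0.76 to 0.81. Of 14 listed, 13 had a symbol in the count table and 12 were tested, of which 3 rose (25.0%, against 16.5% of all genes tested) and 4 fell (33.3%, against 17.2%; 3 and 2 with library size scaling), with a median log2 fold change of -0.10. Snhg11 fell to 36.02 and 40.6 normalised CPM in the libraries labelled knockout, against 65.0 and 64.7 in the controls (-0.76 ± 0.08, adjusted p 7.6e-07). Snhg14, the long host transcript of the imprinted Prader-Willi region, fell to 32.9 and 28.8 against 46.9 and 46.3 (-0.60 ± 0.09, adjusted p 4.48e-05). Both kept their call under all 11 alternatives. Dancr rose to 22.6 and 19.0 against 15.0 and 15.9 (0.43 ± 0.12, adjusted p 0.0102), and this call was lost without knockout replicate 1 (0.30, adjusted p 0.0789) and without control replicate 1 (0.38, adjusted p 0.0888). Leaving out either control gave fewer of these hosts called in each direction, and fewer of all genes tested too.

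**Figure D4:**
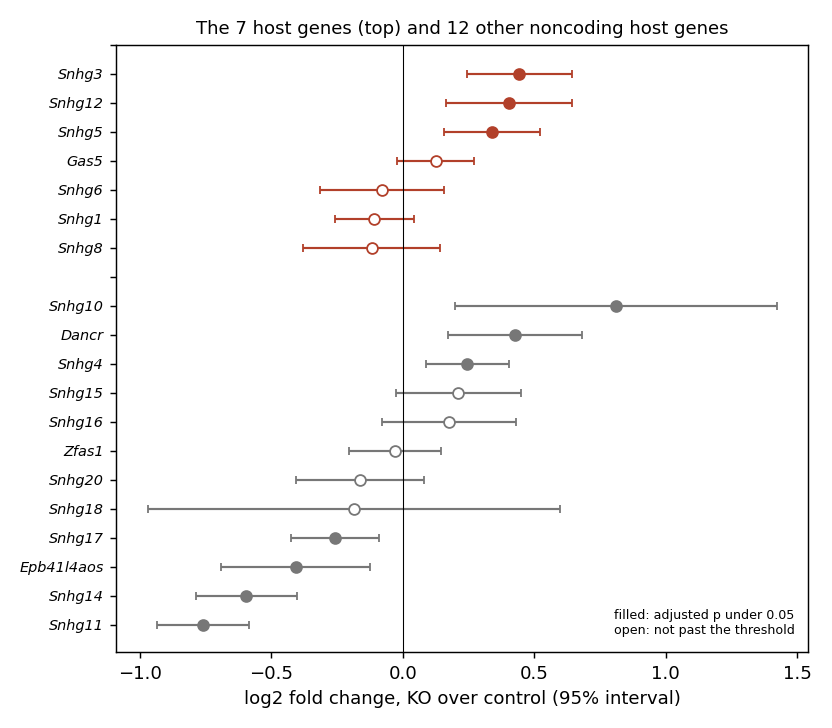
Log2 fold change, libraries labelled knockout over controls, with its 95% interval for the 7 host genes (red, top) and 12 other noncoding host genes (grey); filled points have an adjusted p under 0.05 over all genes tested. The host genes lie between -0.12 and 0.44, the others between -0.76 and 0.81.

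Protein-coding hosts, whose span holds a named small nucleolar RNA on the same strand, numbered 68 tested, of which 16 rose (23.5%, against 16.5% of all genes tested) and 23 fell (33.8%, against 17.2%), with a median of -0.02. With library size scaling 19 rose and 15 fell, and the difference from all genes was not tested. Hspa8, a constitutive Hsp70 chaperone gene, rose to 3243 and 3653 normalised CPM in the libraries labelled knockout, against 2181 and 2256 in the controls (log2 fold change 0.64 ± 0.06, adjusted p 9.21e-08). Ipo7, which encodes a nuclear import receptor, rose to 925 and 947 against 629 and 666 (0.53 ± 0.06). Eif4g1, the scaffold of the cap-binding complex in translation, rose to 740 and 780 against 545 and 528 (0.50 ± 0.06). These are the 3 with the smallest adjusted p. Leaving out either control gave fewer protein-coding hosts called in each direction, and fewer of all genes tested too.

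Of 19 tested genes for proteins that bind or assemble small nucleolar RNAs, 7 were called higher (36.8%, against 16.5% of all genes tested) and 2 lower (10.5%, against 17.2%). Their median was 0.12 on the log2 scale. Scaling by library size gave 10 higher and 1 lower. The difference from all genes was not tested, and the list was chosen with results known. Nolc1, which encodes a nucleolar chaperone of these particles, rose to 200 and 233 normalised CPM in the libraries labelled knockout, against 151 and 158 in the controls (0.49 ± 0.07, adjusted p 2.83e-05). Fbl, the methyltransferase of C/D particles, rose to 189 and 225 against 155 and 152 (0.43 ± 0.07, adjusted p 0.000151). Snu13, the core protein that first binds C/D RNAs, rose to 112 and 114 against 87.1 and 89.2 (0.36 ± 0.07, adjusted p 0.000307). Leaving out either control, or knockout replicate 2, gave fewer of these genes called in each direction, and fewer of all genes tested too.

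Of 15 tested decay factors, 3 were higher and 3 lower (of all genes tested, 16.5% were higher and 17.2% lower, shares near these; 5 and 2 with library size scaling; median 0.02). Upf1, the helicase at the centre of nonsense-mediated decay, fell to 158 and 158 normalised CPM in the libraries labelled knockout, against 204 and 194 in the controls (log2 fold change -0.33 ± 0.06, adjusted p 0.000394). Xrn1, a 5' to 3' exonuclease, fell to 182 and 172 against 217 and 213 (-0.28 ± 0.06, adjusted p 0.00214). Rbm8a, of the exon junction complex, rose to 97.7 and 101 against 78.7 and 82.7 (0.30 ± 0.07, adjusted p 0.00199). This call was lost without control replicate 1 (0.26), where fewer decay factors and fewer of all genes tested were called higher.

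Other messenger RNAs known to start in a pyrimidine run had 2 higher (13.3%, against 16.5% of all genes tested) and 6 lower (40.0%, against 17.2%) of 15 tested, with a median of -0.08. With library size scaling 4 were higher and 4 lower, and the difference from all genes was not tested. Nap1l1, a histone chaperone gene, rose to 1253 and 1275 normalised CPM in the libraries labelled knockout, against 799 and 824 in the controls (0.64 ± 0.06, adjusted p 4.04e-08). Eif4b, a translation initiation factor gene, fell to 855 and 864 against 1202 and 1208 (-0.49 ± 0.06, adjusted p 1.37e-06), and Eef1a1, which encodes the elongation factor that delivers transfer RNA, fell to 8989 and 9038 against 11704 and 11693 (-0.38 ± 0.05, adjusted p 4.98e-06). Leaving out either library labelled knockout gave 4 higher.

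Genes with the profile nearest to each host over the 4 libraries, by Euclidean distance between centred log2 normalised CPM among 8745 named genes of at least 10 CPM on average, were Sbk1 for Snhg3 (distance 0.0366), Tfrc for Snhg12 (0.0301), Pym1 for Snhg5 (0.0137), Phf23 for Gas5 (0.0105), Sugp1 for Snhg1 (0.0125), Bag4 for Snhg6 (0.0235) and H4f16 for Snhg8 (0.0113). Tfrc, the transferrin receptor gene, was at 605 and 521 normalised CPM in the libraries labelled knockout and 391 and 447 in the controls. Pym1, whose product takes exon junction complexes off messenger RNA, was at 40.1 and 46.7 against 35.4 and 33.5.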

How the data were processed

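RNA was measured in 4 libraries of total RNA from mouse E14 cells, treated with DNase and depleted of ribosomal RNA with Ribo-Zero, per the labels' protocols. The submitters' processing notes name cutadapt, HISAT2, featureCounts and build mm10; their versions, the annotation, the strand setting and how overlapping or multiply mapped reads were handled are not given there. The deposited values are raw counts per gene symbol, with no normalization by the authors. The column names carry OK where the titles carry KO; gene, role and number match 1 sample each, and columns not mapped to a sample numbered 0.

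From these counts, low genes were removed (filterByExpr, edgeR 4.0.16, R 4.3.3; minimum count 10, minimum total 15), scaled by TMM and compared with the quasi-likelihood F test (2-sided, prior count 0.125). P-values were adjusted by Benjamini and Hochberg's method across the 17482 genes, and calls need a value under 0.05. Every adjusted p printed is edgeR's unless DESeq2 1.42.0 is named. SE is the log2 fold change divided by the square root of F; intervals are 95%. The test was checked on simulated data. Counting error limits low genes: 3 counts are between 0.118 and 0.133 CPM, and reads carry no molecular identifiers. Replicates differed beyond sampling noise (chi-square per degree of freedom 12.6 for the libraries labelled knockout, 3.51 for the controls).

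Positions, exons and small RNA sequences are from GENCODE M21 and starts from RefSeq, both GRCm38. The host genes and lists were chosen with earlier results of these data known. Named genes are the 7 hosts, per list the 3 smallest adjusted p past the threshold, small RNAs of the hosts with at least 10 counts, genes starting within 1 kb upstream on the opposite strand, overlapping genes, Ssrp1 and the nearest profile of each host.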

Additional observations from a re-analysis of the deposited data

How the results depend on the processing

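Snhg3 was called higher under all 11 alternatives (log2 fold change 0.34 to 0.54), Snhg12 and Snhg5 under 10 each, and Snhg1, Snhg6 and Snhg8 under none. Single libraries moved values as follows when left out in turn: Snhg12 0.31 to 0.49, Snhg5 0.22 to 0.45, Gas5 0.06 to 0.18, higher calls over all genes 1915 to 2995 (1915 without control replicate 1), and called host genes 2 to 4. Calls per list ranged from 0 to 3 higher and 2 to 3 lower for other noncoding hosts, 7 to 19 higher and 14 to 25 lower for protein-coding hosts, 0 to 1 higher for small nucleolar RNAs of the hosts, 4 to 7 higher and 0 to 2 lower for their proteins, 1 to 2 higher for decay factors and 2 to 4 higher for pyrimidine-run messenger RNAs. Scaling by library size alone, which moved the median of all genes to 0.09, gave 2 lower other noncoding hosts, 15 lower protein-coding hosts, 1 lower particle protein gene, 5 higher decay factors, 4 higher pyrimidine-run messenger RNAs and Gas5 at 0.21. DESeq2 gave 2 lower other noncoding hosts and 1 lower particle protein gene. Signs turned, each turned value short of the threshold, under library size scaling for Snhg6 (0.00), Bag4 (0.02), Zfas1 (0.05) and Snora73a (0.07). They also turned when single libraries were left out, over ranges of -0.25 to 0.07 for Snhg6, -0.22 to 0.08 for Bag4, -0.08 to 0.02 for Zfas1, -0.22 to 0.22 for Snora73a, -1.17 to 1.05 for Snord87, -0.14 to 0.20 for Mcmdc2, 0.00 to 0.33 for Snhg16 and -0.81 to 0.25 for Snhg18. At the unturned end, Bag4 without knockout replicate 1 (-0.22, adjusted p 0.00356) and Snhg16 without knockout replicate 2 (0.33, adjusted p 0.0285) passed the threshold. The cause of these changes was not tested. Leaving out Gm26917 and Gm42418 changed no call of the host genes.

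Libraries with the same replicate number showed no shared deviation (correlation of same-numbered deviations 0.00782). This value does not settle whether they were grown or prepared together. With the replicate number as a block, 3 host genes were higher and 0 lower, and 3072 genes were higher and 3216 lower. Where an arm had 1 library left, that library was assumed to vary like the other group.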
